A study of Mus musculus with 12 samples.

Results

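Macrophage genes of dorsal mouse skin were followed in a model of dermatitis with and without mesenchymal stem cell (MSC) treatment. The genes are 10 named markers of macrophage identity, residence and activation, found by gene symbol, and all 10 were among the 36400 genes in the file. Adgre1, Csf1r and Cd68 mark macrophages and their relatives, Cd163, Mrc1 and Lyve1 mark resident macrophages, Arg1, Chil3 and Retnla mark alternative activation, and Nos2 marks inflammatory activation. RNA came from 12 libraries of female BALB/c mice, 6 weeks old when bought, with 3 libraries in each of 4 groups collected on day 30. The control group received the acetone and olive oil vehicle alone. The DNCB group was sensitized with 1% 1-chloro-2,4-dinitrobenzene (DNCB), a contact sensitizer, in 4 applications and challenged with 0.5% DNCB in 6 applications. The scMSC group received the same DNCB course plus 4 injections of 2000000 human umbilical cord MSCs under the skin, in 100 µL each, from day 13 to day 25. The scivMSC group received DNCB and the same number of cells, split evenly between the skin, in 50 µL, and the tail vein, in 50 µL. A group injected with cell-free solution was not analysed here, so an effect of the cells and one of the injection cannot be told apart. DNCB dermatitis is a hapten-driven model of atopic dermatitis, and all mice were of the same strain.

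Skin macrophages take up debris and microbes, present antigen and direct repair. Their survival depends on the receptor encoded by Csf1r, which binds CSF1 and IL-34. In mouse macrophages, microbial products and interferon-gamma induce Nos2, whose product makes nitric oxide from arginine. Interleukin-4 and interleukin-13, acting through STAT6, induce Arg1, Chil3 and Retnla, and the product of Arg1 turns the same arginine into ornithine and urea. None of the activation genes is restricted to macrophages. Arg1 is also expressed by keratinocytes, Chil3 by neutrophils, Retnla by adipose tissue and dendritic cells, and Lyve1 by lymphatic endothelium. In whole skin, a change in the number of cells of a type and a change in RNA per cell cannot be told apart.

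Levels are given as FPKM, which the authors scaled for transcript length and library size and which can be compared between genes. Fold changes come from edgeR's quasi-likelihood test on the deposited estimated counts, with the 4 groups in 1 model and 21890 genes tested. All 10 macrophage genes passed the filter of a mean of 0.1 FPKM over the 12 libraries. Called genes had an adjusted p under 0.05 and a log2 fold change above 1 in size. Libraries held 63877153 to 75134001 estimated counts in all, and about 4 estimated counts correspond to 1 sequenced fragment. A count of 0 allows up to 3 fragments, or 12 estimated counts, which covers counting error only. The p-values measure the spread between 3 mice per group, and with 3 libraries on each side the smallest exact two-sided permutation p is 0.1.

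A pair of libraries stood apart from its group in macrophage genes. Control replicate 3 was the highest of the 3 control libraries in 20 of 20 genes of a list of macrophage and monocyte identity genes, and in 12 of 12 genes of a resident macrophage list. It was the highest of all 12 libraries in 7 and 7 of these genes. Replicate 3 of scivMSC was the lowest scivMSC library in 20 of 20 and 12 of 12 genes, and the lowest of all 12 libraries in 13 and 11. It was also the lowest of all libraries in 6 of 6 fibroblast genes and 5 of 5 blood endothelium genes. The tests of the 10 genes, the gene lists and the correlations were therefore also computed without these libraries, a choice made after their levels were seen. Ratios, sums and group means include all 12 libraries.

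Promoter sequence was read from RefSeq on GRCm38.p6, whose table holds 5 of the 10 genes, namely Mrc1, Chil3, Cd163, Cd68 and Retnla. The promoters of Chil3 and Retnla are shown because these genes of alternative activation moved in opposite directions, and those of Cd68 and Mrc1 because they stand for identity and residence. Each runs 5′ to 3′ on the strand of the gene and ends before the transcribed stretch given in the file. Capitals mark matches, on either strand, to TTC and GAA with any 4 bases between (a STAT-type palindrome), TTGCNNAA (C/EBP-type), GAGGAA (the core bound by PU.1, the macrophage lineage factor), TGANTCA (AP-1-type, a palindrome), TATAAA, and GGGA and TTCC with any 2 bases between (NF-kB-type).
Chil3, chr3:106167565-106167814, minus strand: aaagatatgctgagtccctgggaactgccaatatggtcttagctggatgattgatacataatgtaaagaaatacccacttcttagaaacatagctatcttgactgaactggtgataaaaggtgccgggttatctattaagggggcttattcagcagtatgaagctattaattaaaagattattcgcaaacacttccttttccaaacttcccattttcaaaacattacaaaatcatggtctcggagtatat
Retnla, chr16:48842359-48842550, plus strand: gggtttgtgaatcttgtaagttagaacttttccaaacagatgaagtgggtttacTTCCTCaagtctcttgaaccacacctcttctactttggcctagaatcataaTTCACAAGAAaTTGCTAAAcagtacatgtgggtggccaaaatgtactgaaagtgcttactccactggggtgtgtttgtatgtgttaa
Cd68, chr11:69666171-69666420, minus strand: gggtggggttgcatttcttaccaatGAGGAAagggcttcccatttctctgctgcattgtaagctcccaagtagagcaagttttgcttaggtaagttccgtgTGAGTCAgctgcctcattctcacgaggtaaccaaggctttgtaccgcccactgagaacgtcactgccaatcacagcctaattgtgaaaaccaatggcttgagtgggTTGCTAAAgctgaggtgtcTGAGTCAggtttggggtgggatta
Mrc1, chr2:14229164-14229391, plus strand: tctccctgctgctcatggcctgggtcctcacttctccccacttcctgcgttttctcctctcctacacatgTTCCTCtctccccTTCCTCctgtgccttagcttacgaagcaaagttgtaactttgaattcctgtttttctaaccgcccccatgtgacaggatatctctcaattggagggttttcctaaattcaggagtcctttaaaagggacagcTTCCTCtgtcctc

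The Retnla promoter held the STAT-type palindrome 145 to 136 bases upstream of the RefSeq start, followed by a C/EBP-type match at 134 to 127 and a reverse-strand PU.1 core at 196 to 191. A TATAAA match at 30 to 25 bases lay beyond the printed stretch. None of the 6 patterns, as written, matched in the 250 bases of Chil3. TTC and GAA do stand closer together there, at a spacing that was not searched. The lack of a match therefore does not show that Chil3 lacks sites for these factors. Mrc1 held 3 PU.1 cores on the reverse strand, and Cd68 held a PU.1 core, a C/EBP-type match and a pair of AP-1-type matches. Among 32851 RefSeq promoters of 250 bases, the STAT-type palindrome occurred in 5.85%, the C/EBP-type pattern in 9.56%, GAGGAA in 23.3%, the AP-1-type pattern in 6.75%, TATAAA in 12.4% and the NF-kB-type pattern in 1.21%. A match describes these letters and not a bound site.

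The macrophage identity genes were highest in DNCB skin in the group means, but none of their differences passed the test, and the level varied widely between mice within the control, scMSC and scivMSC groups. Cd68 (chr11:69664213-69666153 on GRCm38, minus strand) encodes a lysosomal glycoprotein of macrophages. It was present at 7.79, 10.3 and 35.2 FPKM in the control libraries, at 44.1, 43.6 and 50.2 in DNCB, at 21.04, 9.55 and 12.2 in scMSC and at 18.8, 23.1 and 5.99 in scivMSC. The 3 DNCB libraries lay above all 9 others, and control replicate 3 was the nearest to them. The log2 fold change of DNCB was 1.22 ± 0.56 (SE) against control, with an adjusted p of 0.136. It was 1.68 ± 0.56 against scMSC with an adjusted p of 0.0793, and 1.54 ± 0.56 against scivMSC with an adjusted p of 0.124. Without control replicate 3 the value against control was 2.08, with an adjusted p of 0.0165. Against scMSC the adjusted p of Cd68 was 0.0295 without control replicate 3, 0.0447 without scivMSC replicate 3 and 0.0126 in DESeq2.

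Adgre1 (chr17:57358691-57483527, plus strand) encodes F4/80, an adhesion receptor that defines mouse tissue macrophages. Its FPKM was 3.40, 2.86 and 9.88 in control, 9.15, 8.66 and 11.4 in DNCB, 4.97, 1.35 and 2.08 in scMSC and 4.20, 6.17 and 0.189 in scivMSC. DNCB lay above both treated groups, whereas control replicate 3 fell inside the DNCB range. The log2 fold change of DNCB was 0.70 ± 0.86 relative to control, 1.79 ± 0.89 relative to scMSC and 1.49 ± 0.88 relative to scivMSC, with adjusted p of 0.609, 0.237 and 0.355. Against scMSC the adjusted p was 0.0464 without scivMSC replicate 3, a library outside that comparison that enters the shared estimate of the spread.

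Csf1r (chr18:61100598-61131134, plus strand) encodes the receptor for CSF1 and IL-34. It overlaps Mir6983 on the same strand, and a pseudogene, Csf1r-ps, can share its reads. Csf1r was at 9.80, 10.3 and 30.8 FPKM in control, 24.1, 30.5 and 28.0 in DNCB, 23.1, 7.01 and 10.3 in scMSC and 16.2, 18.3 and 3.20 in scivMSC. The highest of the 12 values came from control replicate 3 and the lowest from scivMSC replicate 3. DNCB exceeded control by 0.54 ± 0.61 on the log2 scale, scMSC by 1.03 ± 0.61 and scivMSC by 1.15 ± 0.61, with adjusted p of 0.568, 0.338 and 0.304.

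**Figure D1:**
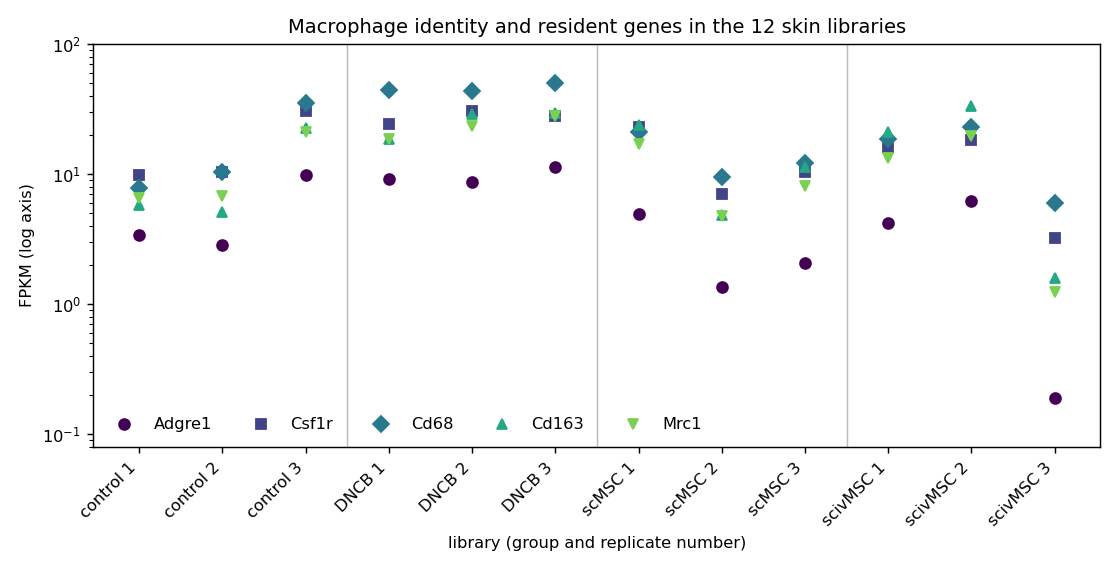
FPKM on a log axis of Adgre1, Csf1r, Cd68, Cd163 and Mrc1 in each of the 12 libraries, grouped by treatment, with 1 marker per gene and library. The 5 genes are high in the 3 DNCB libraries and in control replicate 3, and are lowest in scivMSC replicate 3, where Adgre1 was 0.189 FPKM.

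The resident markers Cd163 and Mrc1 were not called in any comparison by edgeR with all 12 libraries. Cd163 (chr6:124304656-124330527, plus strand) encodes the scavenger receptor for haemoglobin bound to haptoglobin. Its FPKM was 5.80, 5.11 and 22.4 in control, 18.7, 28.7 and 29.7 in DNCB, 23.9, 4.83 and 11.3 in scMSC and 21.1, 33.2 and 1.58 in scivMSC. All 3 other groups overlapped DNCB, and the highest and lowest values both came from scivMSC mice. The log2 fold change of DNCB was 1.06 ± 0.88 relative to control, 0.95 ± 0.88 relative to scMSC and 0.50 ± 0.87 relative to scivMSC, with adjusted p of 0.423, 0.569 and 0.807. Without scivMSC replicate 3 the last of these turned to -0.06.

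Mrc1 (chr2:14229392-14332057, plus strand) encodes the mannose receptor CD206, used both as a marker of dermal resident macrophages and of alternative activation. It stood at 6.53, 6.74 and 21.2 FPKM in control, 18.7, 23.5 and 28.2 in DNCB, 17.1, 4.80 and 8.04 in scMSC and 13.4, 19.7 and 1.25 in scivMSC. DNCB lay above scMSC and overlapped control and scivMSC. Log2 fold changes of DNCB were 0.87 ± 0.77, 1.23 ± 0.78 and 1.06 ± 0.77 against control, scMSC and scivMSC, with adjusted p of 0.454, 0.369 and 0.469. With control replicate 3 and scivMSC replicate 3 both left out, Cd68, Cd163 and Mrc1 were called higher in DNCB than in control. Of all tested genes, 14.8% were then called in either direction. The log2 fold changes of Cd68, Cd163 and Mrc1 were 2.08, 1.98 and 1.56, with adjusted p of 0.0019, 0.0318 and 0.0338. These libraries were left out for their macrophage levels, so the 3 calls are no independent support.

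Lyve1 (chr7:110850607-110863239, minus strand), a hyaluronan receptor of perivascular macrophages and lymphatic vessels, showed no difference between the groups that stood out from the spread. Its FPKM was 3.19, 2.46 and 6.10 in control, 2.41, 2.27 and 8.95 in DNCB, 8.40, 1.95 and 5.21 in scMSC and 11.03, 5.07 and 0.632 in scivMSC. Every pair of groups overlapped, and a single library made most of the mean in DNCB. The log2 fold change of DNCB was 0.05 ± 0.85 relative to control, -0.19 ± 0.85 relative to scMSC and -0.28 ± 0.85 relative to scivMSC, with adjusted p of 0.981, 0.933 and 0.899. The sign against control turned without DNCB replicate 3, to -0.90. Of the markers of lymphatic endothelium, Prox1 was detected at 0.157 to 0.673 FPKM in all 12 libraries, and the part of lymphatic vessels in the Lyve1 level was not tested.

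The activation genes, in contrast, separated the groups. Arg1 (chr10:24915221-24927484, minus strand), which encodes arginase 1, was at 9.40, 8.20 and 9.21 FPKM in control, 39.1, 41.1 and 26.5 in DNCB, 13.9, 19.6 and 14.6 in scMSC and 12.3, 10.1 and 8.58 in scivMSC. DNCB lay above all other libraries, scMSC lay above control and scivMSC, and control and scivMSC overlapped. Against all 3 other groups Arg1 was called higher in DNCB, at 3.50-fold against control (log2 1.81 ± 0.21, adjusted p = 0.000627), 2.16-fold against scMSC (1.11 ± 0.21, adjusted p = 0.007) and 3.43-fold against scivMSC (1.78 ± 0.21, adjusted p = 0.00319). Its adjusted p stayed under 0.05 in all 22 alternative settings of each of these comparisons. Against scMSC the log2 fold change fell to 0.99 without DNCB replicate 2 and to 0.99 without scMSC replicate 1, below the limit of 1.

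Chil3 (chr3:106147554-106167564, minus strand) encodes Ym1, a chitinase-like protein secreted by macrophages and neutrophils. It measured 0.192, 0.0295 and 0.230 FPKM in control, 7.16, 5.23 and 3.00 in DNCB, 0.388, 0.540 and 0 in scMSC and 0.425, 1.21 and 0.428 in scivMSC. These are low counts outside DNCB, with 4 to 27 estimated counts in the control libraries against 398 to 877 in DNCB. The 3 DNCB libraries lay above the 9 others. The log2 fold change was 4.88 ± 1.19 against control (adjusted p = 0.0126) and 3.99 ± 1.13 against scMSC (adjusted p = 0.0418), both called, and 2.89 ± 1.07 against scivMSC (adjusted p = 0.131), not called. The call against scMSC was lost without any DNCB library, with adjusted p of 0.113, 0.0931 and 0.0654 without replicates 1, 2 and 3. It was also lost without scMSC replicate 1 (0.0906) or 2 (0.0713), control replicate 1 (0.0568) or 3 (0.0531) or scivMSC replicate 1 (0.0552). Against scivMSC the adjusted p was 0.0283 without scMSC replicate 3, the library with a count of 0. Chil4, a near-identical relative whose reads could be shared with Chil3, was at most 0.124 FPKM in any library.

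Nos2 (chr11:78920787-78960254, plus strand), the inducible nitric oxide synthase, was the inflammatory marker among the 10 genes. Its level was 0.243, 0.246 and 0.354 FPKM in control, 4.90, 2.28 and 2.92 in DNCB, 0.0615, 0.0728 and 0.0688 in scMSC and 0.0312, 0.142 and 0 in scivMSC. DNCB lay above control, and control lay above both treated groups, which overlapped each other. In estimated counts, the DNCB libraries held 838 to 1631, the control libraries 78 to 111, scMSC 23 to 27 and scivMSC 0 to 52. DNCB was 10.5-fold higher than control (log2 3.40 ± 0.85, adjusted p = 0.0139), and the difference was 5.56 ± 0.95 against scMSC (adjusted p = 0.00458) and 5.84 ± 0.96 against scivMSC (adjusted p = 0.0073), all called. Against control the adjusted p rose to 0.0566 without control replicate 1, 0.0509 without control replicate 2 and 0.0523 without DNCB replicate 1.

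Retnla (chr16:48842551-48844461, plus strand) moved the other way. It encodes resistin-like molecule alpha, a secreted protein that interleukin-4 induces in macrophages, and it was the most abundant of the 10 genes in control skin. Its FPKM was 113.9, 181.7 and 507.0 in control, 10.4, 11.3 and 5.43 in DNCB, 147.7, 58.3 and 44.9 in scMSC and 112.4, 40.8 and 13.9 in scivMSC. The 3 DNCB libraries lay below all 9 others. Control and scMSC overlapped, as did scMSC and scivMSC, while every scivMSC library lay below every control library. Retnla fell by 5.03 ± 0.86 on the log2 scale in DNCB against control (adjusted p = 0.00229) and by 3.21 ± 0.79 against scMSC (adjusted p = 0.0229), both called. Against scivMSC the difference was -2.60 ± 0.77 with an adjusted p of 0.0646, not called. It was -3.06 with an adjusted p of 0.0456 without scivMSC replicate 3. The call against scMSC was lost without DNCB replicate 1, 2 or 3 (adjusted p of 0.0731, 0.0663 and 0.0879) or scMSC replicate 1 (0.0601), with log2 fold changes of -2.57 to -3.41.

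**Figure D2:**
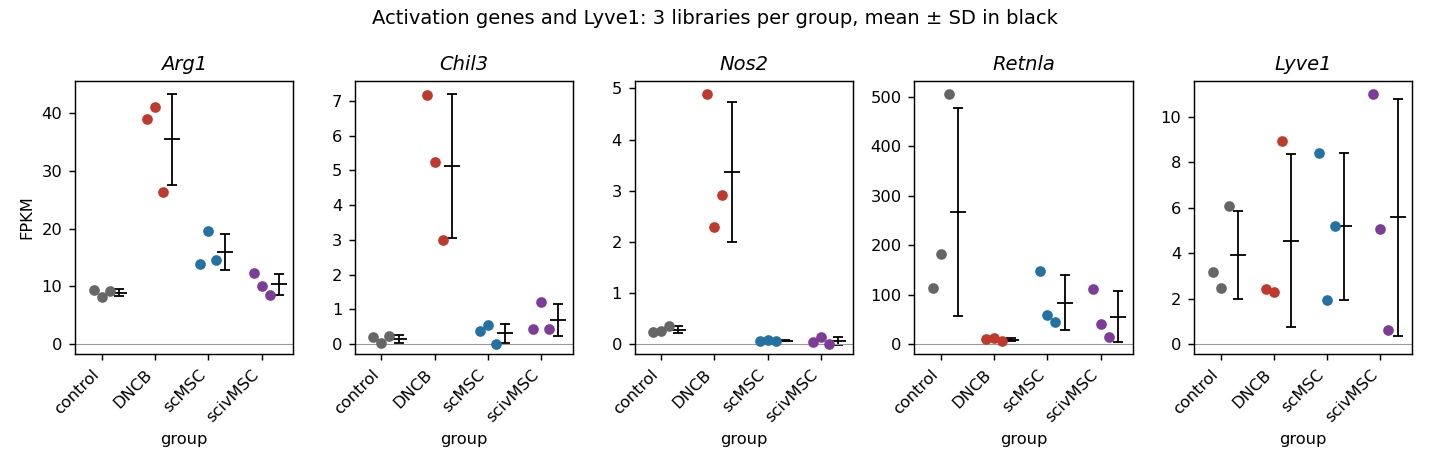
FPKM of Arg1, Chil3, Nos2, Retnla and Lyve1 in the 4 groups, each panel with its own linear axis, with 1 point per library and the mean ± SD (n = 3) in black. The DNCB points lie above all others for Arg1, Chil3 and Nos2 and below all others for Retnla, and they overlap the rest for Lyve1.

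The group means show how far the changes went. Arg1 averaged 8.94 ± 0.646 FPKM (SD, n = 3) in control skin, 35.5 ± 7.92 in DNCB skin, 16.1 ± 3.12 in scMSC and 10.3 ± 1.88 in scivMSC. Nos2 averaged 0.281 ± 0.0633, 3.37 ± 1.36, 0.0677 ± 0.00575 and 0.0577 ± 0.0746 in the same order. Chil3 averaged 0.151 ± 0.107, 5.13 ± 2.08, 0.309 ± 0.278 and 0.689 ± 0.454, and Retnla 268 ± 210, 9.05 ± 3.16, 83.6 ± 55.9 and 55.7 ± 50.9. On the FPKM scale the highest of the 3 genes of alternative activation was thus Retnla in control skin and Arg1 in DNCB skin.

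In DNCB against control, 3 of the 10 genes were called higher and 1 lower, where 6.59% and 7.57% of all tested genes were called in these directions, 14.2% in all. Against scMSC the same 4 genes were called in the same directions, with 3.84% of all tested genes called higher, 4.66% lower and 8.5% in all. Against scivMSC, 2 genes (Arg1 and Nos2) were called, both higher, against 2.33% of all tested genes called higher, 3.13% lower and 5.46% in all. The 3 DNCB libraries lay above every control library in 4 of the 10 genes and below in 1, where 31.7% and 16.1% of all tested genes did so. Against scMSC they lay above in 7 and below in 1, with 17.1% and 16% of all tested genes, and against scivMSC above in 6 and below in 1, with 16.3% and 16.4%. The median log2 fold change of the 10 genes was 0.97, 1.17 and 1.32 against control, scMSC and scivMSC, beside 0.02, -0.02 and -0.02 over all tested genes. The 3 comparisons share the DNCB libraries, so they are not independent of each other. Arg1, Cd68, Csf1r and Nos2 are also in a list of genes high in DNCB that the study drew from these samples, which makes their direction no independent evidence.

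**Figure D3:**
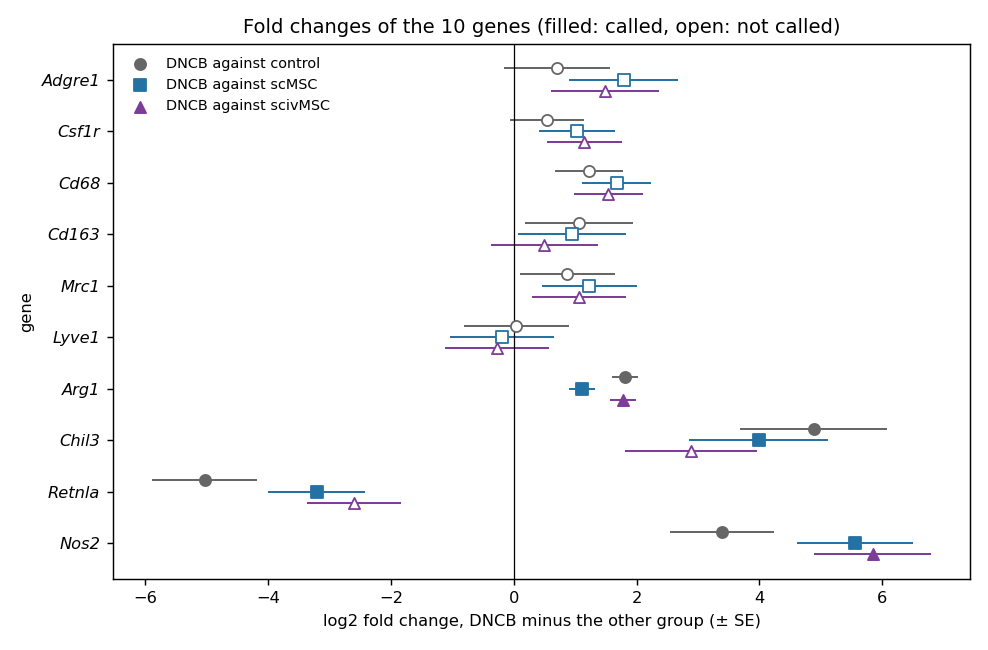
Log2 fold change ± SE of the 10 genes for DNCB against control (circles), scMSC (squares) and scivMSC (triangles), with positive values higher in DNCB and filled symbols for called differences. Arg1, Chil3 and Nos2 lie to the right and Retnla to the left in all 3 comparisons. The standard errors reach 0.89 for the identity and resident genes and 1.19 for the activation genes.

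The number of calls between treated groups and control did not set these genes apart from all tested genes. A gene that was not called need not be at its control level. None of the 10 was called by edgeR in scMSC against control, where 9.32% of all tested genes were called in either direction, or in scivMSC against control, where 6.85% were. Of all tested genes, 5.12% were called higher and 4.2% lower in scMSC, and 3.5% higher and 3.35% lower in scivMSC. The libraries of scMSC lay above control in 1 of the 10 genes and below in 1, where 25.9% and 11.7% of all tested genes did so, and those of scivMSC above in 1 and below in 2, with 24.3% and 10.3%. At an unadjusted p under 0.05 there were 3 and 2 genes, and DESeq2 called 2 in each, namely Nos2 and Retnla. Of all 21890 tested genes, DESeq2 called 2667 in scMSC and 2087 in scivMSC against control. Nos2 was lower than in control in every treated library, by 2.17 ± 0.84 on the log2 scale in scMSC (adjusted p = 0.0988) and by 2.45 ± 0.85 in scivMSC (adjusted p = 0.0846). The adjusted p of Nos2 crossed the threshold without scivMSC replicate 3, at 0.0117 in scMSC and 0.0479 in scivMSC, and without scivMSC replicate 2, at 0.0351 and 0.0242. Retnla differed from control by -1.82 ± 0.74 in scMSC (adjusted p = 0.115) and by -2.43 ± 0.76 in scivMSC (adjusted p = 0.0584), the latter at 0.0345 without scivMSC replicate 1. Arg1 in scMSC exceeded control by 0.70 ± 0.21 with an adjusted p of 0.0413 and stayed under the fold limit. That p was 0.107, 0.149 and 0.128 without control replicates 1, 2 and 3, and 0.229 without scMSC replicate 2.

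Between scMSC and scivMSC none of the 10 genes was called, beside 0.00457% of all tested genes, and 1 had an unadjusted p under 0.05. That gene was Arg1, higher in scMSC by 0.67 ± 0.21 on the log2 scale with an adjusted p of 0.571, all 3 scMSC libraries lying above the scivMSC libraries. No other gene of the 10 separated these groups, where 5.67% of all tested genes lay above and 5.16% below. DESeq2 also called 0 of the 10 in this comparison, beside 114 of all 21890 tested genes. The standard errors of Nos2 (0.85), Chil3 (1.03) and Retnla (0.72) leave room for large differences between the routes at this depth and number of mice.

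To set aside the level of macrophage RNA in a library, each gene was divided by the identity level of the same library, the geometric mean of the FPKM of Adgre1, Csf1r and Cd68. The identity level was 6.38, 6.74 and 22.03 in control, 21.4, 22.6 and 25.2 in DNCB, 13.4, 4.49 and 6.40 in scMSC and 10.8, 13.8 and 1.54 in scivMSC. Over this wide range the ratio of Mrc1 stayed between 0.813 and 1.43, and that of Cd163 between 0.758 and 2.41. Control and DNCB overlapped in both. Cd163 per identity level was 0.758 to 1.02 in control, below scMSC (1.07 to 1.78) and scivMSC (1.03 to 2.41) without overlap. The nearest values, 1.02 and 1.03, came from control replicate 3 and scivMSC replicate 3, the libraries that stood apart. Mrc1 per identity level was 0.964 to 1.02 in control, below scMSC (1.07 to 1.28) without overlap, and 0.813 to 1.43 in scivMSC. Lyve1 was 0.277 to 0.500 in control, 0.101 to 0.355 in DNCB, 0.434 to 0.814 in scMSC and 0.368 to 1.02 in scivMSC, so that DNCB lay below both treated groups. The nearest of these Lyve1 values were 0.355 and 0.368. The share of all tested genes that separate on such ratios was not computed, for these genes or those below. By FPKM, 25.9% and 24.3% of all tested genes lay above control in scMSC and scivMSC.

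Retnla per identity level was 17.9, 27.0 and 23.0 in control, 0.487, 0.501 and 0.216 in DNCB, 11.01, 12.98 and 7.02 in scMSC and 10.4, 2.96 and 9.04 in scivMSC. Control replicate 3, which stood apart by FPKM, was the middle of the 3 control ratios. Control lay above both treated groups, and these above DNCB, without overlap. Nos2 per identity level was 0.0161 to 0.0381 in control, 0.101 to 0.229 in DNCB, 0.00458 to 0.0162 in scMSC and 0 to 0.0103 in scivMSC. Chil3 per identity level was 0.119 to 0.335 in DNCB and 0.00438 to 0.0302 in control, and both treated groups reached into the DNCB range. Arg1 per identity level overlapped between every pair of groups, from 0.418 to 5.58 over the 12 libraries, with its highest value in scivMSC replicate 3, where the identity level was lowest. Over the 12 libraries the correlation of Arg1 on the log2(FPKM + 0.1) scale was 0.45 with Adgre1, 0.49 with Csf1r and 0.66 with Cd68.

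**Figure D4:**
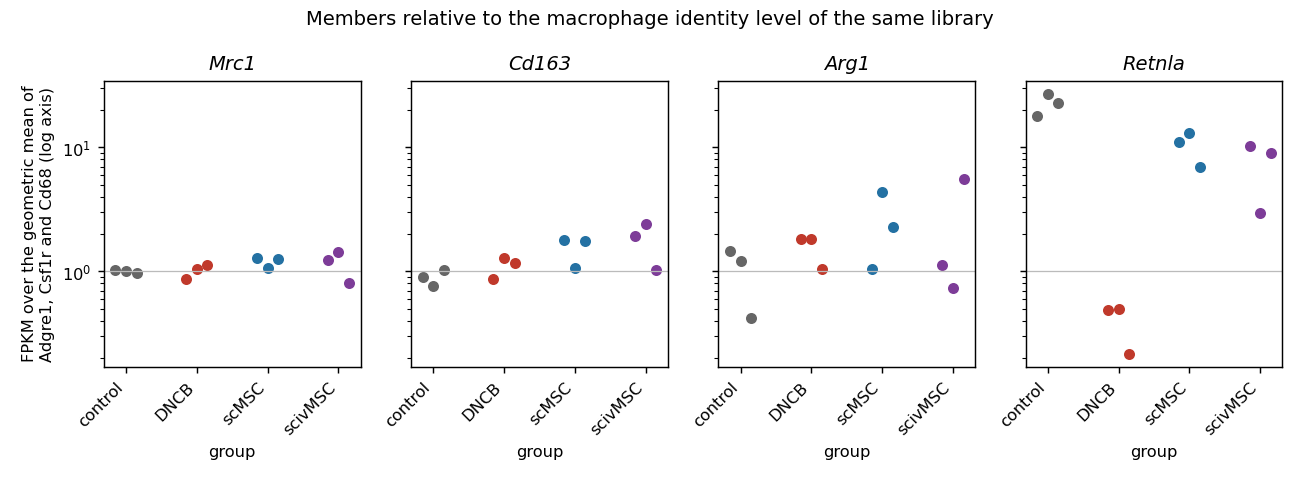
FPKM of Mrc1, Cd163, Arg1 and Retnla divided by the geometric mean of Adgre1, Csf1r and Cd68 in the same library, on a shared log axis, with 1 point per library. Mrc1 stays within 0.813 to 1.43 in all groups, whereas Retnla is at 17.9 to 27.0 in control and at 0.216 to 0.501 in DNCB.

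Arg1 and Nos2 use the same substrate, and the ratio of their FPKM ordered the groups. Nos2 over Arg1 was 0.0258 to 0.0384 in control, 0.0556 to 0.125 in DNCB, 0.00371 to 0.00472 in scMSC and 0 to 0.0140 in scivMSC. DNCB lay above control and control above both treated groups, without overlap. Retnla over Arg1 was 12.1 to 55.0 in control, 0.205 to 0.276 in DNCB, 2.97 to 10.6 in scMSC and 1.62 to 9.12 in scivMSC, and DNCB lay below the 9 other libraries. Both ratios rest on genes described above and are given without a test and without a share over all genes.

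Wider lists place the 10 genes among their relatives. Of 20 tested genes of macrophage and monocyte identity, 5 were called higher in DNCB than in scMSC and 3 higher than in scivMSC. The medians of the list were 0.62 against control, 1.64 against scMSC and 1.52 against scivMSC on the log2 scale. Against scMSC the called genes were Aif1, Spi1, Msr1, Itgam and Tyrobp, and against scivMSC Aif1, Spi1 and Tyrobp. Without control replicate 3 and scivMSC replicate 3, 13 were called higher against scMSC and 3 against scivMSC, where 9.46% and 2.91% of all tested genes were called, and the medians were 1.33, 1.65 and 1.04. Spi1 encodes PU.1, and its FPKM was 2.81 to 6.31 in control, 10.6 to 12.97 in DNCB, 0.950 to 3.78 in scMSC and 1.20 to 4.48 in scivMSC. Of 12 resident macrophage genes, Stab1 was called higher in DNCB than in control (1.95 ± 0.59, adjusted p = 0.0323) and Timd4 lower (-3.73 ± 1.01, adjusted p = 0.0203). None was called by edgeR in DNCB against either treated group, where 2 and 1 had an unadjusted p under 0.05. The medians were 0.02, 0.72 and 0.80. Without the same pair of libraries, 4 were called higher against control (Cd163, Mrc1, Stab1 and Vsig4) and 1 lower (Timd4), 1 higher against scMSC (Stab1) and 0 against scivMSC, with medians of 0.64, 0.73 and 0.27. The pair was left out for its levels in these same lists, so the counts without it are no independent support. Stab1 encodes a scavenger receptor, and Timd4 a receptor for phosphatidylserine on long-lived resident macrophages.

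Of 19 tested genes of alternative activation, 3 were called higher in DNCB than in control (Arg1, Chil3 and Il4ra) and 3 lower (Retnla, Mgl2 and Tgm2). Against scMSC the counts were 3 higher and 2 lower, and against scivMSC 2 higher and 0 lower, with medians of -0.34, -0.09 and -0.21. Without control replicate 3 and scivMSC replicate 3, 5 were called higher and 3 lower against control, and 3 higher and 2 lower against scMSC. Against scivMSC, 1 was then called higher and 3 lower (Arg1, Irf4, Mgl2 and Retnla in all). The medians were 0.20, -0.07 and -0.17, and Chil3 was no longer called against scMSC. The genes of this list therefore did not move in 1 direction. Mgl2, a galactose-binding lectin of dermal macrophages and dendritic cells, was at 9.51 ± 4.55 FPKM in control skin, 0.844 ± 0.315 in DNCB skin, 3.97 ± 1.72 in scMSC and 2.76 ± 1.98 in scivMSC. Mgl2 fell by 3.64 ± 0.60 against control (adjusted p = 0.00194) and by 2.23 ± 0.56 against scMSC (adjusted p = 0.0266). Its difference from scivMSC was -1.68 ± 0.56 with an adjusted p of 0.0938.

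The called genes of the inflammatory list were all higher in DNCB. Of 25 tested genes, 14 were called higher in DNCB than in control, 13 than in scMSC and 11 than in scivMSC, with 0 lower in each, and the medians were 3.34, 3.85 and 3.05. Without control replicate 3 and scivMSC replicate 3 the counts were 13, 16 and 6, with medians of 2.93, 3.86 and 3.54. The chemokine Ccl4 rose by 6.64 ± 1.00 against control (adjusted p = 0.00137), Ccl3 by 6.42 ± 1.24 (adjusted p = 0.00409) and Cxcl2, which attracts neutrophils, by 6.38 ± 1.60 (adjusted p = 0.0144). Acod1, which makes itaconate in activated macrophages, rose by 6.49 ± 1.33 (adjusted p = 0.00552). Nos2, at 3.40, was close to the median of its list. Acod1, Clec4e and Fpr2 of this list are also in the study's own list of genes high in DNCB.

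Signals upstream of the 10 genes were measured in the same libraries. Of 5 tested genes of the CSF1 and IL-34 axis, none was called by edgeR in DNCB against control, and 3 had an unadjusted p under 0.05. Csf1, the ligand, exceeded control by 0.65 ± 0.29 (adjusted p = 0.134) and was called higher in DNCB than in scMSC (1.29 ± 0.30, adjusted p = 0.0172) and scivMSC (1.19 ± 0.30, adjusted p = 0.0351). The Csf1 call against scivMSC was lost without control replicate 3 and scivMSC replicate 3, and the call against scMSC was kept. Il34, the other ligand, differed from control by -0.89 ± 0.32 on the log2 scale (adjusted p = 0.0677). Of 6 genes of the interleukin-4 axis, 2 were called higher in DNCB than in control, 3 than in scMSC and 2 than in scivMSC, and 0 were called lower. Il4ra, the receptor chain for interleukin-4, was called higher in all 3 comparisons, by 1.69 ± 0.35, 2.09 ± 0.36 and 1.57 ± 0.35 (adjusted p of 0.00581, 0.00461 and 0.0229). Without control replicate 3 and scivMSC replicate 3 the counts of this axis were 3, 3 and 1, and Il4ra was not called against scivMSC. The ligand Il4 was at 0.246 to 0.591 FPKM in the 12 libraries and differed from control by -0.04 ± 0.48 in DNCB (adjusted p = 0.964).

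Of 11 genes of arginine metabolism, 6 were called higher in DNCB than in control (Arg1, Arg2, Nos2, Slc7a1, Ass1 and Gch1) and 1 lower (Nos1). Arg2, the mitochondrial arginase, was at 4.68 ± 2.13 FPKM in control skin, 32.1 ± 7.57 in DNCB skin, 10.3 ± 0.496 in scMSC and 14.3 ± 3.34 in scivMSC. It rose by 2.58 ± 0.33 against control (adjusted p = 0.000785), 1.61 ± 0.32 against scMSC (adjusted p = 0.00846) and 1.16 ± 0.31 against scivMSC (adjusted p = 0.0459). Gch1, which makes a cofactor of nitric oxide synthases, was called higher in the same 3 comparisons, by 1.06 ± 0.25, 1.24 ± 0.25 and 1.19 ± 0.25 (adjusted p of 0.0104, 0.00932 and 0.0182). Ass1, which regenerates arginine, rose by 2.69 ± 0.40 against control (adjusted p = 0.00127) but differed from scMSC by -0.55 ± 0.37 (adjusted p = 0.408) and was also called higher in scMSC than in control. The 4 arginine genes called against scMSC and against scivMSC as higher were Arg1, Arg2, Nos2 and Gch1. Without control replicate 3 and scivMSC replicate 3, those called against scivMSC were Arg1 and Nos2.

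The close relatives of the 10 genes went in both directions. Of 8 tested, Arg2, Mrc2 and Retnlg were called higher in DNCB in all 3 comparisons, Retn lower against control and scivMSC, and Nos1 lower against control and scMSC. Without control replicate 3 and scivMSC replicate 3, Arg2 and Mrc2 were not called against scivMSC and Nos1 was not called against scMSC. Mrc2, a relative of Mrc1 that binds collagen, rose by 1.51 ± 0.35 against control (adjusted p = 0.00995), 1.61 ± 0.35 against scMSC (adjusted p = 0.0135) and 1.36 ± 0.35 against scivMSC (adjusted p = 0.0381). Retnla lies on chromosome 16 between Retnlb (chr16:48816856-48818892) and Retnlg (chr16:48872621-48874496), on the same strand, with 28159 bases and no other gene of the file between Retnla and Retnlg. Retnlg, a neutrophil gene, was at 0, 0 and 0.360 FPKM in control, 103, 96.5 and 49.2 in DNCB, 1.61, 0.397 and 0.959 in scMSC and 1.09, 6.49 and 0.436 in scivMSC. The neighbours thus had opposite profiles, Retnlg being highest and Retnla lowest in the 3 DNCB libraries. Retnlb was at 0 in 11 libraries and at 0.182 FPKM in control replicate 1. Retn, the adipocyte resistin on chromosome 8, was lower in DNCB than in control by 2.24 ± 0.36 on the log2 scale (log2 fold change -2.24, adjusted p = 0.00173), as Retnla was. It differed from scMSC by -0.62 ± 0.34 (adjusted p = 0.306) and from scivMSC by -1.60 ± 0.35 (adjusted p = 0.0219). Nos1, the neuronal enzyme, fell by 2.25 ± 0.43 against control (adjusted p = 0.00406), and Nos3, the endothelial enzyme, differed by 0.77 ± 0.34 (adjusted p = 0.125).

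Markers of other cells moved with the activation genes. The 10 neutrophil genes summed to 120.7 to 207.3 FPKM in control, 2468 to 3439 in DNCB, 16.0 to 65.4 in scMSC and 34.6 to 178.5 in scivMSC. Most of each sum came from S100a8 and S100a9, so the sums are no measure of neutrophil number. Their means were 51.6 and 94.8 FPKM in control and 916 and 1966 in DNCB. In this list 9 of 10 genes were called higher in DNCB than in control, 8 than in scMSC and 7 than in scivMSC, with medians of 4.48, 6.15 and 4.47. Without control replicate 3 and scivMSC replicate 3 the counts were 7, 8 and 6, with medians of 4.44, 6.15 and 4.19. Ly6g, the defining marker, was at 2.67, 4.93 and 1.83 FPKM in DNCB and had 0 FPKM in all 9 other libraries. S100a8 rose by 3.98 ± 0.60 against control (adjusted p = 0.00142). The part of neutrophils in the rise of Arg1, Chil3 and Nos2 was not tested. Of 6 keratinocyte genes, 3 were called higher in DNCB than in control (Krt5, Krt14 and Dsg3), and their sums were 4377 to 9617 FPKM in control, 13042 to 19047 in DNCB, 4412 to 7729 in scMSC and 7416 to 14246 in scivMSC. The part of keratinocytes in the Arg1 level was not tested.

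Beside the fall of Retnla, 4 of 7 adipocyte genes were called lower in DNCB than in control (Plin1, Cidec, Cfd and Retn), 1 lower than in scMSC (Cfd) and 3 lower than in scivMSC (Cidec, Cfd and Retn). Lep, which encodes leptin, was called higher in DNCB than in scivMSC (2.39 ± 0.56, adjusted p = 0.0283). The adipocyte sums were 494.8 to 621.4 FPKM in control, 202.9 to 375.7 in DNCB, 375.2 to 791.2 in scMSC and 537.4 to 1000 in scivMSC. Of 3 Langerhans cell genes, Cd207 and Cd74 were called lower in DNCB than in control. With all 12 libraries, none of 6 dendritic cell genes was called by edgeR in any DNCB comparison. Of these 6, 1, 1 and 0 had an unadjusted p under 0.05 against control, scMSC and scivMSC. Without control replicate 3 and scivMSC replicate 3, the dendritic cell gene Itgax was called higher in DNCB than in control and scMSC. Cd74 was then not called against control. Of 4 tested eosinophil genes, Ccr3 was called higher and Ear2 lower in DNCB than in control, Epx had 0 FPKM in 11 libraries, and the sums were 1.01 to 6.40 FPKM in all libraries. Ear2 was not called without control replicate 3 and scivMSC replicate 3. The part of these cells in the Retnla level was not tested.

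Around Lyve1, 1 of 7 lymphatic endothelium genes was called higher in DNCB than in control (Pdpn, which keratinocytes also express), 2 than in scMSC and 1 than in scivMSC. Their sums were 17.3 to 35.1 FPKM in control, 39.9 to 48.6 in DNCB, 10.95 to 31.7 in scMSC and 14.5 to 28.4 in scivMSC. Of 5 blood endothelium genes, 1, 3 and 1 were called higher in DNCB in the 3 comparisons, and of 6 fibroblast genes 4, 3 and 0. Without control replicate 3 and scivMSC replicate 3 the counts were 0, 3 and 0 for blood endothelium and 5, 5 and 0 for fibroblasts. Of 5 skeletal muscle genes, 4 were called lower in DNCB than in control. Of 6 hair shaft and inner root sheath genes, 0 were called by edgeR against control (1 at an unadjusted p under 0.05), 3 lower against scMSC and 1 lower against scivMSC. Without the same pair of libraries, 0, 6 and 1 of these hair genes were called lower. The summed muscle genes fell from 13312 to 19349 FPKM in control to 3528 to 5254 in DNCB, and the part of muscle in the macrophage genes was not tested.

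**Figure D5:**
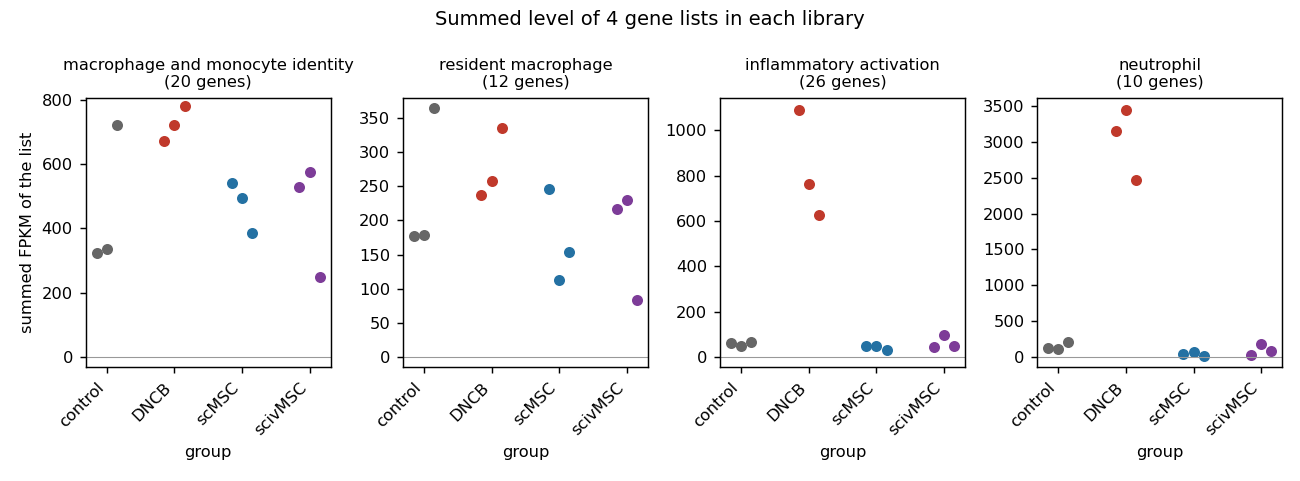
Summed FPKM of the lists of macrophage and monocyte identity, resident macrophage, inflammatory activation and neutrophil genes, with 1 point per library in each of the 4 groups. Identity sums overlap between control (322 to 721 FPKM) and DNCB (673 to 779 FPKM), whereas inflammatory and neutrophil sums of the 3 DNCB libraries lie above the 9 others. The sums follow their most abundant genes, S100a8 and S100a9 in the neutrophil list. In the identity list these include Lgals3, with means of 165 FPKM in control and 176 in DNCB, and C1qa, with 93.0 and 127.

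Across the 12 libraries Adgre1, Csf1r, Cd68, Cd163 and Mrc1 varied together, and some of them also correlated with activation genes. Pearson correlations of log2(FPKM + 0.1) were 0.97 between Adgre1 and Csf1r, 0.98 between Csf1r and Mrc1 and 0.97 between Cd163 and Mrc1. Arg1, Chil3 and Nos2 correlated at 0.77 to 0.80 with each other. Cd68 correlated at 0.77 with Nos2, 0.71 with Chil3 and 0.66 with Arg1, and Adgre1 at 0.68 with Nos2. Retnla correlated at -0.68 with Arg1, -0.72 with Chil3 and -0.55 with Nos2, and at 0.00 with Csf1r and -0.30 with Cd68. Over the 10 libraries without control replicate 3 and scivMSC replicate 3, Retnla correlated at -0.62 with Csf1r and -0.82 with Cd68, and Cd68 at 0.87 with Chil3, 0.77 with Nos2 and 0.76 with Arg1. These values describe libraries that include the group differences and share the composition of each skin sample.

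The genes most like each marker over the 12 libraries were found by the same measure. For Adgre1 they were Rnf130 (0.985) and the complement genes C1qc (0.984) and C1qb (0.984), and for Csf1r they were Cybb (0.986), Clec4a1 (0.986) and Pltp (0.981). For Cd68 they were the lysosomal protease gene Ctss (0.983), the lysosomal lipase gene Lipa (0.982) and Arhgap30 (0.980). Susd1 (0.979) and Abca9 (0.975) were among the genes most like Cd163, and Mrc1 was most like C1s1 (0.984), Man1c1 (0.984) and Ssc5d (0.980). Lyve1 had no partner as close, with Plpp3 at 0.910, Chrdl1 at 0.898 and Stxbp6 at 0.887. Chil3 was most like Slpi (0.973), Plaur (0.972) and the C-type lectin gene Clec4d (0.972), and Nos2 most like Tlr2 (0.971), Aplnr (0.969) and Pilra (0.966). Arg1 was most like Nars (0.955), Slc7a11 (0.952) and Zdhhc18 (0.952). Retnla was most like Mgl2 (0.982), followed by Rgs9bp (0.945) and Clic3 (0.942).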

How the data were processed

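RNA from the dorsal skin of 12 mice, numbered as separate samples in 4 groups of 3, was sequenced. The authors deposited FPKM, scaled for gene length and library size, and estimated counts that are whole numbers and not normalized between libraries. The submitters' processing notes list HISAT2 2.0, StringTie 1.3.0, Bowtie 0.12.2 and the build mm8, while gene positions in the file match GRCm38 (36285 of the 36287 identifiers found in GENCODE M21). Columns of annotation were not used. The 10 genes and the 19 gene lists used for context were chosen with earlier results of these data known, and the lists give counts and medians only. Counts were tested with edgeR 4.0.16 (quasi-likelihood F-test, TMM, factors 0.887 to 1.06) in R 4.3.3 over the 21890 genes whose mean reached 0.1 FPKM, with Benjamini-Hochberg adjustment. Standard errors were derived from the F statistic. The common biological coefficient of variation was 0.420. Alternatives used DESeq2 1.42.0, limma 3.58.1 on log2(FPKM + 0.1), with 0.01 and 1 as other pseudocounts, counts divided by 4, no filter, library size alone, the 6 libraries compared, the replicate number as a block and each library left out. Leaving out control replicate 3 and scivMSC replicate 3 together was added after seeing the data. The genes named are the 10 markers, the 3 genes most like each over the 12 libraries, close relatives, and called or defining genes of the lists. A partner of Cd163 and the calls against control in the identity list are not reported here. Other genes singled out were chosen after their values were seen. Near-identical genes (Chil3 and Chil4, Csf1r and its pseudogene) can share reads. Promoters came from RefSeq on GRCm38.p6. Tables used Python 3.11.15 and pandas 2.3.3, and figures matplotlib 3.10.9.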

Additional observations from a re-analysis of the deposited data

How the results depend on the processing

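The number of the 10 genes called in DNCB against control was 4, with a range of 3 to 5 when 1 library was left out, and 7 without control replicate 3 and scivMSC replicate 3 together, an alternative chosen after seeing the data. Of all 21890 tested genes, 2457 to 3225 were called on leaving out 1 library, and 3249 without both. Against scMSC the number of the 10 genes called was 4, with a range of 1 to 6 on leaving out 1 library, from 1 without DNCB replicate 2 or scMSC replicate 1 and 2 without DNCB replicate 1 or 3 to 6 without scivMSC replicate 3. Of all tested genes, 1222 to 2008 were called on leaving out 1 library. Against scivMSC the number of the 10 genes called was 2, with a range of 2 to 3, and 5 in DESeq2. Of all tested genes, 476 to 1442 were called on leaving out 1 library, and 1883 in DESeq2. In scMSC against control the number of the 10 genes called was 0, and 2 in DESeq2, 1 with counts divided by 4, 1 in limma on log2(FPKM + 0.1), 1 with the 6 libraries compared alone, 1 without both named libraries, 1 with no fold limit, and 0 to 1 on leaving out 1 library. Of all tested genes, 2667, 2144, 2381, 1506 and 2139 were called in the first 5 of these settings. On leaving out 1 library, 1364 to 2326 were called. In scivMSC against control the number of the 10 genes called was 0, and 2 in DESeq2, 2 with counts divided by 4, 2 in limma with pseudocounts of 0.1 and 0.01, 1 with a pseudocount of 1, and 0 to 1 on leaving out 1 library. Of all tested genes, 2087 were called in DESeq2, 1581 with counts divided by 4, and 1859, 1876 and 1024 in limma in the same order. On leaving out 1 library, 843 to 1798 were called. The cause of these differences between settings was not tested. Direction was checked for all 10 genes in the 3 DNCB comparisons, and there it turned for Lyve1 and Cd163 alone. For the treated groups against control it was checked for Nos2, Retnla and, in scMSC, Arg1, and none turned. Lyve1 against control went to -0.0032 with the block and to -0.11, -0.23 and -0.90 without control replicates 1 and 2 and DNCB replicate 3, a range of -0.90 to 0.42 over the libraries left out. Against scMSC it went to 0.11, 0.12 and 0.31 without DNCB replicates 1 and 2 and scMSC replicate 1, over a range of -1.14 to 0.31. Against scivMSC it went to 0.12 and 0.15 in limma with pseudocounts of 0.1 and 0.01, and to 0.03, 0.04 and 0.69 without DNCB replicates 1 and 2 and scivMSC replicate 1, over a range of -1.22 to 0.69. Cd163 against scivMSC went to -0.058 without scivMSC replicate 3, alone or with control replicate 3, over a range of -0.058 to 1.20. In the tests of single genes, 684 alternative values kept direction and side of the threshold. Of the others, 43 moved under the adjusted p threshold, 29 moved above it and 14 turned direction.

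Same-numbered libraries of compared groups correlated at -0.21 to 0.15 in their deviations from the group means, so the numbers do not pair the mice. With the replicate number as a block the calls were 4, 3 and 2 against control, scMSC and scivMSC, Chil3 against scMSC being lost (adjusted p = 0.063), and 0 in the other comparisons. Scaling by library size alone moved the median of all genes by about 0.2 against control, to 0.20 for DNCB, 0.16 for scMSC and 0.21 for scivMSC. In the 3 DNCB comparisons this scaling reversed no direction of the 10 genes. It changed the split of all calls in DNCB against control from 1442 higher and 1656 lower to 2020 and 1301, in scMSC from 1120 and 920 to 1477 and 670, and in scivMSC from 766 and 734 to 1134 and 566. In limma on log2(FPKM + 0.1) these splits were 2192 and 1384, 1540 and 841, and 1174 and 685. Calls over all genes against scMSC fell from 1861 to 1222 without scMSC replicate 2 and 1231 without DNCB replicate 2. Against scivMSC they ran from 1195 to 476 without scivMSC replicate 1 and 1883 in DESeq2. In scMSC against control they went from 2040 to 1300 in limma on log2(FPKM + 1), and in scivMSC against control from 1500 to 795 with the 6 libraries alone. Between scMSC and scivMSC they went from 1 to 114 in DESeq2. Low counts of Nos2 and Chil3 outside DNCB limit their fold changes, and the spread of 3 mice limits those of the identity and resident genes.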
